A study of Mus musculus with 14 samples.

Results

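The 36 genes described here encode lysosomal hydrolases, lysosomal membrane proteins and the transcription factors of the MiT/TFE family that regulate them. They were listed by gene symbol, with earlier results of these data known: 10 cathepsins and peptidases, 7 lipid hydrolases and cofactors, 10 sugar, sulphate and phosphate hydrolases, 6 membrane proteins and 3 factors. Each symbol matched 1 of the 33459 gene IDs in the count table, and all 36 passed the filter on low counts in both tissues. The study measured mRNA by sequencing in gonadal white adipose tissue (gWAT, the visceral fat depot beside the gonads) and in heart. Wild-type (WT) mice were compared with FHL2-/- mice (KO), which lack the LIM-domain protein FHL2. All groups were C57BL/6 mice aged 21 weeks and kept on high-fat feed for the last 8 weeks, so no group shows these genes on a normal diet. There were 3 WT and 3 KO gWAT libraries, numbered 1, 3 and 4, and 4 WT and 4 KO heart libraries, numbered 1 to 4. The labels give neither the sex of the mice nor which part of the gene was removed. Whether separate mice gave the separate libraries is not labelled, so p-values measure the spread between these samples.

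Lysosomes are acidic organelles in which cathepsins cut proteins and other hydrolases take lipids, glycans and phosphate groups apart. Membrane proteins such as LAMP1 and NPC1 hold the organelle together and carry its products out. The factors TFEB, TFE3 and MITF bind short E-box sequences in the promoters of many lysosomal genes. In the fat of obese animals, macrophages around dying adipocytes are known for many large, lipid-filled lysosomes, so lysosomal transcripts of whole gWAT can come from adipocytes and macrophages alike.

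Libraries held 15105019 to 16040188 counts in gWAT and 10835092 to 13272412 in heart. The targeted gene Fhl2 was at 4.35 to 6.26 CPM (counts per 1000000 counts of the scaled library) in gWAT of WT mice and 0.257 to 0.462 CPM in gWAT of KO mice. In heart it was at 1031 to 1396 CPM in WT and 28.6 to 37.8 CPM in KO libraries. At this gene every library thus went with its genotype label. The tissue labels were checked with Adipoq, the adipocyte hormone adiponectin, which was at 1759 CPM or more in gWAT and 27.2 CPM or less in heart. Myh6, the heart muscle myosin, was at 9739 CPM or more in heart and 5.94 CPM or less in gWAT. Markers of the epididymis, which lies beside this depot in males, summed to 4.32 CPM or less in gWAT, with 3 or 4 of 7 genes at 0.

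The promoters were examined for the E-box that the MiT/TFE factors bind. RefSeq windows on GRCm38.p6, running from 250 bases before to 50 bases after a start site, were found for 31 of the 36 genes. The E-box core CACGTG, a palindrome that reads alike on both strands, stood in windows of 8 of these 31 genes (25.8%). It stood in those of 16 of 49 other lysosomal genes (32.7%) and of 2187 of all 27025 genes in the promoter table (8.09%). The 8-base form TCACGTGA, which contains the core, was found in 4 of 31 (12.9%) against 1.12% of all genes. The 10-base palindrome of the CLEAR element, which contains both, was found in 0 of 31 against 0.37%. The stretches are shown because they carry the sequence by which these genes are known to be regulated together. Capitals mark the core, or the 8-base form where it is present, and each is written 5′ to 3′ on the strand of its gene.

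Ctsd, chr7:142387901-142387944, minus strand: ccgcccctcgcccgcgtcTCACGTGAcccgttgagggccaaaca
Gla, chrX:134601175-134601251, minus strand: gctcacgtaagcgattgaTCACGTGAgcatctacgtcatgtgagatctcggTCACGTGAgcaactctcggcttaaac
Ctsa, chr2:164833742-164833802, plus strand: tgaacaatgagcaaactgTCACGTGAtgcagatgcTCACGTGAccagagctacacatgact
Mcoln1, chr8:3500430-3500498, plus strand: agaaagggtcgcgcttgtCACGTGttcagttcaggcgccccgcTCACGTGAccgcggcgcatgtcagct
Lamp1, chr8:13159082-13159169, plus strand: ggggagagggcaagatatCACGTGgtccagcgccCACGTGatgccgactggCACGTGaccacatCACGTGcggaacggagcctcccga
Ctsl, chr13:64370733-64370770, minus strand: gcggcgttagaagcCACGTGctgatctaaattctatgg

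Lamp1 held 4 matches in 1 stretch, and Gla and Ctsa each held 2 copies of the 8-base form. Gaa and Glb1 held 1 match each, and Ctsd a further match in the outer part of its window. A match describes letters in the window and does not show that a factor binds there.

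In gWAT, mRNA of many lysosomal genes was lower in KO than in WT mice. Of the 36 genes, 11 fell and 0 rose at an edgeR adjusted p under 0.05, which is 30.6% of them. Of all 15200 genes tested in gWAT, 5.49% were called, 3.48% as lower and 2.01% as higher. The median log2 fold change, KO over WT, was -0.67 over the 36 genes and 0.00 over all genes tested, and 31 of the 36 values were below 0 against 50% of all genes. In 26 of 36 genes all 3 KO libraries lay below all 3 WT libraries, against 14.5% of all genes. In Acp5 they lay above, against 13.3% of all genes, and in 9 genes the groups overlapped.

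The 36 genes together summed to 16400, 25533 and 22105 CPM in WT replicates 1, 3 and 4, a mean of 21346 ± 4614 (SD, n = 3). In KO replicates 1, 3 and 4 they summed to 12567, 12317 and 12895 CPM, a mean of 12593 ± 290 (SD, n = 3). The KO libraries lay close together and below every WT library, and the WT mean was 1.70 times the KO mean. Psap, Ctsb, Ctsl and Ctsd made up 65.2% of this fall of 8753 CPM.

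**Figure D1:**
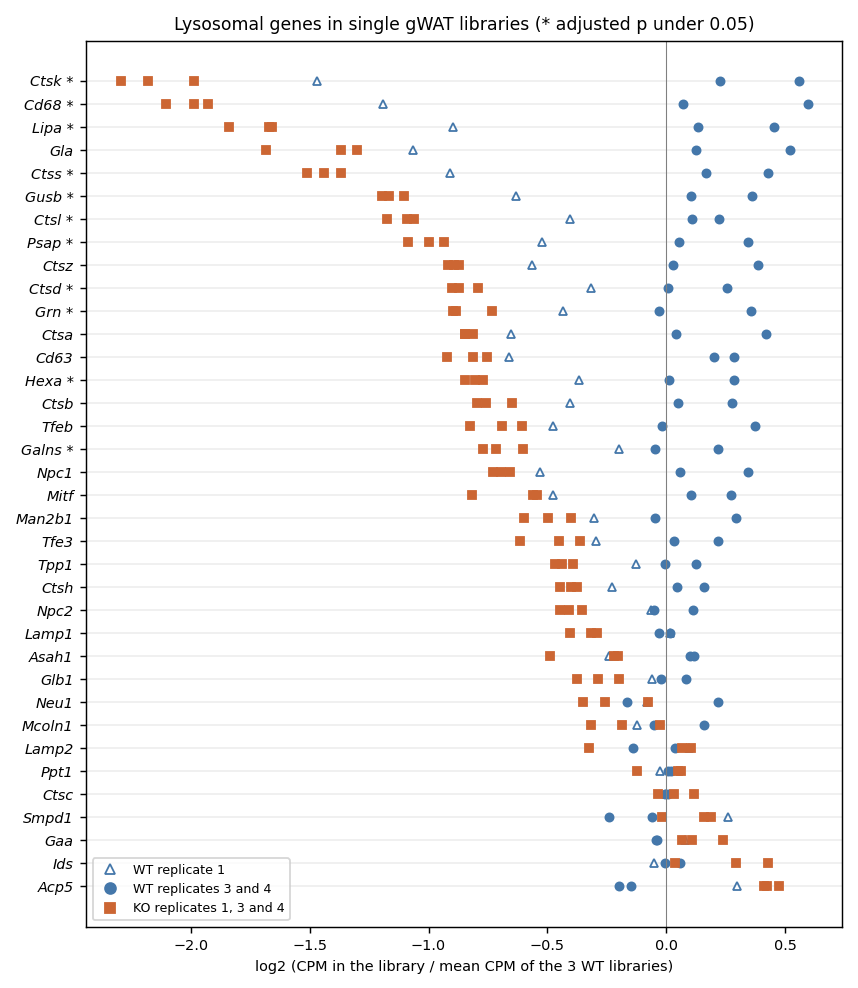
Level of each of the 36 genes in each gWAT library, as log2 of its CPM over the mean CPM of the 3 WT libraries. WT replicate 1 is drawn as an open triangle, WT replicates 3 and 4 as circles and KO replicates as squares, and in 26 genes all squares lie left of all WT points.

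WT replicate 1 stood apart from the other WT libraries. It lay between all KO libraries and both other WT libraries in 25 of 36 genes, and below both other WT libraries in 29. The coefficient of variation was larger in WT than in KO libraries for 29 of 36 genes, with a median of 20.3% in WT and 6.06% in KO. Without WT replicate 1, 25 genes were called lower and 1, Acp5, higher. Of all 15578 genes tested in that fit, 1707 were called lower and 1201 higher. Without WT replicate 3, WT replicate 4 or any of the 3 KO libraries, 0 of the 36 were called by edgeR. Of the 36, 23 to 26 were then lower at an unadjusted p under 0.05 by edgeR. In the reported fit, 26 of the 36 and 1930 of all 15200 genes were lower at that level by edgeR. In either direction, 23.1% of all 15200 genes passed it. Over all genes, 87 were called lower and 45 higher without WT replicate 3. Without WT replicate 4 or any KO library, 0 of all genes tested were called. The 11 called genes kept their sign under all 15 alternatives, and the highest adjusted p of each over these lay between 0.121 and 0.178.

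Cathepsins are the proteases of the lysosome, and 4 of the 10 genes of this group fell, with a median log2 fold change of -0.84. Ctsk (chr3:95499256-95509362, plus strand) encodes cathepsin K, a collagen-cutting cysteine protease best known from osteoclasts. It was at 64.1, 261 and 207 CPM in WT replicates 1, 3 and 4, and at 36.2, 39.2 and 44.8 CPM in the KO replicates. Ctsk was low in every KO library and in WT replicate 1, which still lay above them, and the log2 fold change was -2.15 ± 0.44 (SE; edgeR adjusted p = 0.0342). Its neighbour Ctss (chr3:95526786-95556403, plus strand) encodes cathepsin S, which trims the invariant chain in antigen-presenting cells. Ctss was at 348, 877 and 732 CPM in WT and at 241, 229 and 253 CPM in KO libraries. The groups did not overlap, and Ctss fell by 1.44 ± 0.30 on the log2 scale (edgeR adjusted p = 0.0358).

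Ctsl (chr13:64359337-64370890, minus strand) encodes cathepsin L, a broad cysteine protease whose promoter core is printed above. It was at 1293, 1995 and 1844 CPM in WT and at 757, 803 and 819 CPM in KO libraries. The KO values spanned a narrow range below all WT values, and the log2 fold change was -1.11 ± 0.18 (edgeR adjusted p = 0.0253). Exons of Ctsl overlap those of Gm47123 on the other strand over 26.8% of their length. Whether the counting used strand is not given in the sources used here, so reads of the 2 genes may not be told apart. Ctsd (chr7:142375911-142388038, minus strand) encodes the aspartic protease cathepsin D. It was at 1385, 2054 and 1733 CPM in WT and at 995, 923 and 940 CPM in KO libraries, again without overlap. The log2 fold change of Ctsd was -0.85 ± 0.17 (edgeR adjusted p = 0.0327).

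The other 6 genes of the group did not pass. Ctsz, a carboxypeptidase of the cathepsin family, had a log2 fold change of -0.89 ± 0.22 and an edgeR adjusted p of 0.0522. Tpp1, the tripeptidyl peptidase lost in a form of Batten disease, had -0.43 ± 0.11 (edgeR adjusted p = 0.0542). Ctsb, cathepsin B, was at 3552, 5698 and 4858 CPM in WT and 2782, 2708 and 2999 CPM in KO libraries, with -0.73 ± 0.21 (edgeR adjusted p = 0.0773). These 3 genes lay below all WT libraries in every KO library although none was called. Genes on the other strand overlap the exons of Ctsb over 12.8% of their length, those of Ctsa over 10.5% and those of Lamp1 over 9.3%, so their counts are uncertain in the same way as those of Ctsl. Ctsa and Ctsh gave log2 fold changes of -0.83 and -0.41. Ctsc, the dipeptidyl peptidase that activates granule proteases, stood at 173 to 175 CPM in WT and 169 to 188 CPM in KO libraries, with a log2 fold change of 0.04. In Ctsc the groups overlapped, and WT replicate 1 lay with the other WT libraries.

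Lysosomal lipid breakdown is carried by hydrolases, their helper proteins and cholesterol carriers, and 3 of these 7 genes fell (median log2 fold change -0.40). Lipa (chr19:34492318-34527474, minus strand) encodes lysosomal acid lipase, which splits cholesteryl esters and triglycerides. Lipa was at 288, 731 and 586 CPM in WT and at 149, 169 and 168 CPM in KO libraries. All KO libraries lay well below the lowest WT library, and the log2 fold change was -1.72 ± 0.30 (edgeR adjusted p = 0.0268). Psap (chr10:60277627-60302597, plus strand) encodes prosaposin, the precursor of the saposins that lift sphingolipids to their hydrolases. Psap was at 2986, 5433 and 4444 CPM in WT and at 2245, 2022 and 2148 CPM in KO libraries, and its log2 fold change was -1.004 ± 0.23 (edgeR adjusted p = 0.0456). Grn (chr11:102430315-102437048, plus strand) encodes progranulin, a secreted and lysosomal glycoprotein that travels with prosaposin. Grn was at 504, 874 and 669 CPM in WT and at 410, 369 and 367 CPM in KO libraries. The groups did not overlap and Grn fell by 0.84 ± 0.20 on the log2 scale (edgeR adjusted p = 0.0481).

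The other 4 lipid genes were not called. Npc2, which hands cholesterol to NPC1 inside the lysosome, had a log2 fold change of -0.40 and Asah1, acid ceramidase, one of -0.30. Smpd1, acid sphingomyelinase, was at 125, 88.3 and 99.98 CPM in WT and at 119, 117 and 103 CPM in KO libraries, which overlapped, with a log2 fold change of 0.11. Ppt1, a thioesterase that removes fatty acids from proteins, stayed between 91.3 and 104 CPM in all 6 libraries. Smpd1 and Ppt1 thus showed no separation of the genotypes.

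Glycan, sulphate and phosphate hydrolases gave 3 falls among 10 genes, with a median log2 fold change of -0.39. Gusb (chr5:129989011-130003049, minus strand), which encodes beta-glucuronidase, was at 179, 355 and 298 CPM in WT and at 129, 121 and 123 CPM in KO libraries. Its log2 fold change was -1.16 ± 0.23 (edgeR adjusted p = 0.0312), with the KO values close together and all below WT replicate 1. Hexa (chr9:59539540-59565109, plus strand), the alpha subunit of beta-hexosaminidase, was at 252, 396 and 328 CPM in WT and at 190, 186 and 181 CPM in KO libraries. It fell by 0.81 ± 0.16 on the log2 scale (edgeR adjusted p = 0.0342). Exons of Hexa share 12.8% of their length with Tmem202 on the other strand. Galns (chr8:122578242-122611463, minus strand), a sulphatase that acts on keratan sulphate, was at 34.1, 45.6 and 37.9 CPM in WT and at 23.8, 25.8 and 23.0 CPM in KO libraries. In Galns the WT libraries lay closer together, relative to their mean, than in the called genes above. The log2 fold change of Galns was -0.70 ± 0.13 (edgeR adjusted p = 0.0296).

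Gla, the alpha-galactosidase deficient in Fabry disease, was at 21.9, 65.7 and 49.96 CPM in WT and at 14.3, 18.6 and 17.8 CPM in KO libraries. Its log2 fold change of -1.44 ± 0.35 equalled that of Ctss in size, but its edgeR adjusted p was 0.0519. Man2b1, Glb1 and Neu1 gave log2 fold changes of -0.50, -0.29 and -0.23 and did not pass. Ids and Gaa, the iduronate sulphatase and the acid alpha-glucosidase that degrades glycogen, gave 0.26 and 0.14. Acp5, tartrate-resistant acid phosphatase of osteoclasts and macrophages, was at 293, 208 and 215 CPM in WT and at 331, 317 and 320 CPM in KO libraries. It was the 1 gene with every KO library above every WT library, with a log2 fold change of 0.44 ± 0.15 (edgeR adjusted p = 0.123). WT replicate 1 lay between the groups in Acp5 too.

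Of the 6 membrane proteins, Cd68 fell (group median log2 fold change -0.52). Cd68 (chr11:69664213-69666153, minus strand), a heavily glycosylated relative of LAMP proteins that is also used as a macrophage marker, was at 177, 609 and 424 CPM in WT and at 93.9, 102 and 106 CPM in KO libraries. Its log2 fold change was -2.004 ± 0.38 (edgeR adjusted p = 0.0296). The tetraspanin gene Cd63 was at 116, 224 and 211 CPM in WT and at 96.8, 105 and 109 CPM in KO libraries, with -0.83 ± 0.23 (edgeR adjusted p = 0.0715). Npc1, the cholesterol exporter of the lysosomal membrane, had -0.69 ± 0.20 (edgeR adjusted p = 0.0798). Lamp1, an abundant structural glycoprotein, was at 1122, 1125 and 1089 CPM in WT and at 893, 839 and 907 CPM in KO libraries. Its log2 fold change was -0.34 and did not pass, although the groups did not overlap and WT replicate 1 lay with the other WT libraries. Lamp2 and the calcium channel gene Mcoln1 gave -0.04 and -0.17, with overlapping groups.

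None of the 3 MiT/TFE factors was called. Tfeb was at 14.8, 26.6 and 20.3 CPM in WT and at 13.5, 12.7 and 11.6 CPM in KO libraries, with a log2 fold change of -0.71 ± 0.21 (edgeR adjusted p = 0.0848). Tfe3 was at 53.0, 75.7 and 66.6 CPM in WT and at 47.5, 50.6 and 42.5 CPM in KO libraries, with -0.47 ± 0.14 (edgeR adjusted p = 0.0939). Mitf was at 22.5, 37.8 and 33.6 CPM in WT and at 17.8, 21.5 and 21.2 CPM in KO libraries, with -0.64 ± 0.19 (edgeR adjusted p = 0.0918). In all 3 factors the groups did not overlap, and WT replicate 1 was the WT library nearest to the KO libraries. The activity of these factors is controlled largely through their place in the cell, which mRNA does not measure.

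Genes with and without the E-box core overlapped in their change in gWAT. The 8 genes with a core in a window had a median log2 fold change of -0.59, between -1.44 (Gla) and 0.14 (Gaa), and 2 of them, Ctsd and Ctsl, were called lower. The 23 genes with windows but no core had a median of -0.64, between -2.15 (Ctsk) and 0.44 (Acp5), and 8 were called lower. Lamp1, with 4 matches, had a log2 fold change of -0.34. Among genes whose windows held none, Cd68, Lipa and Ctsk changed more, and Ctsc, Ppt1, Lamp2 and Smpd1 changed less. These genes were named after their values were seen. The motif GAGGAAGT (or its reverse complement ACTTCCTC), a form of the site of the myeloid factor PU.1, was searched after the values were seen. It stood in windows of 4 of 31 genes (12.9%; Ctsc, Ctss, Gla and Gusb), of 0 of 49 other lysosomal genes and of 3.69% of all genes. Among macrophage markers the motif stood in windows of 1 of 10 (C1qc). Of the 4 genes, Ctss and Gusb were called lower, while Gla (-1.44) and Ctsc (0.04) were not called. The match in Ctss covers its start site. It was picked by outcome, and is shown because Ctss was among the genes that fell most. Whether PU.1 binds or acts at any of these genes was not tested.

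Ctss, chr3:95526766-95526809, plus strand, capitals marking the motif: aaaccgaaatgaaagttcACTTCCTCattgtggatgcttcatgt

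**Figure D2:**
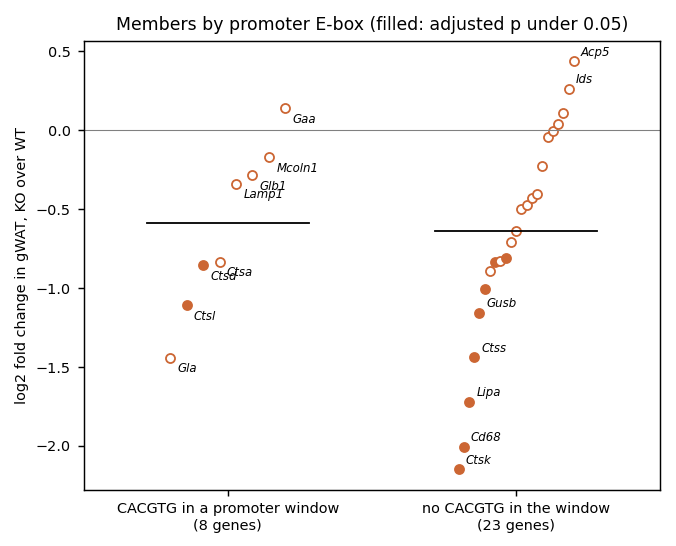
Log2 fold change in gWAT, KO over WT, of the genes with the E-box core CACGTG in a promoter window (8 genes) and without it (23 genes). Each point is a gene, filled where the edgeR adjusted p was under 0.05, and lines mark the medians of -0.59 and -0.64.

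Markers of several cell types differed between the same libraries. Of 15 macrophage markers, 3 fell (Adgre1, Fcgr1 and Cx3cr1) and 1 rose (Lyve1), with a median log2 fold change of -0.62. Apart from Adgre1, these were named after their values were seen. Their sum was 2519, 4711 and 3801 CPM in WT replicates 1, 3 and 4 and 2277 to 2558 CPM in KO libraries, and none was at 0 in any library. Adgre1, which encodes the macrophage antigen F4/80, was at 285 ± 138 CPM (SD, n = 3) in WT and 99.6 ± 11.7 CPM (SD, n = 3) in KO libraries. Adgre1 fell by 1.52 ± 0.35 on the log2 scale (edgeR adjusted p = 0.0457). Csf1r, the macrophage growth factor receptor, gave -0.61 ± 0.24 and was not called (edgeR adjusted p = 0.169).

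Of 13 genes known from lipid-associated macrophages, 9 fell and 0 rose (median log2 fold change -1.95). Trem2, their lipid receptor, was at 135 ± 75.4 CPM (SD, n = 3) in WT and 21.4 ± 3.49 CPM (SD, n = 3) in KO libraries, a log2 fold change of -2.66 ± 0.42 (edgeR adjusted p = 0.0253). The sum of these 13 genes was 22468 to 23877 CPM in WT and 16966 to 18922 CPM in KO libraries. It is dominated by Lpl and Cd36, which adipocytes express as well. Of 11 adipocyte markers 3 rose (median log2 fold change 0.49), with a sum of 23410 to 34658 CPM in WT and 33026 to 37191 CPM in KO libraries. Of 6 mesothelial markers 3 rose (median 1.14), with a sum of 115 to 245 CPM in WT and 311 to 518 CPM in KO libraries. Of 5 mast cell markers 0 were called, but 4 were lower at an unadjusted p under 0.05 by edgeR (median -0.96). Their sum was 29.5 to 56.1 CPM in WT and 23.8 to 32.7 CPM in KO libraries. At that level 1930 of all 15200 genes tested in gWAT were lower and 1580 higher by edgeR. Among macrophage markers 11 were lower and 2 higher at it, and among the lipid-associated macrophage genes 11 and 0. Among adipocyte markers 0 were lower and 6 higher, as among mesothelial markers. Of 5 neutrophil markers 2 passed the filter and 0 were called, and both lay below all WT libraries in every KO library (median -1.22). The neutrophil markers summed to 15.9 to 27.2 CPM in WT and 7.51 to 9.60 CPM in KO libraries, with 1 or 2 of 5 at 0 in each library. Endothelial, fibroblast and lymphocyte lists had 0 calls and medians of 0.00, -0.04 and 0.35. Of 7 fibroblast markers, 3 were lower and 2 higher at an unadjusted p under 0.05 by edgeR, with log2 fold changes between -1.03 and 0.86. Their median near 0 thus covers shifts in both directions. Of 7 lymphocyte markers 1 was higher at that level, and of 6 endothelial markers 0 differed. WT replicate 1 was again the WT library nearest to the KO libraries in the macrophage and adipocyte sums, and lay within the KO range in both. The part of cell make-up in the lower lysosomal mRNA was not tested, and in whole tissue fewer cells of a type and less RNA per cell cannot be told apart.

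**Figure D3:**
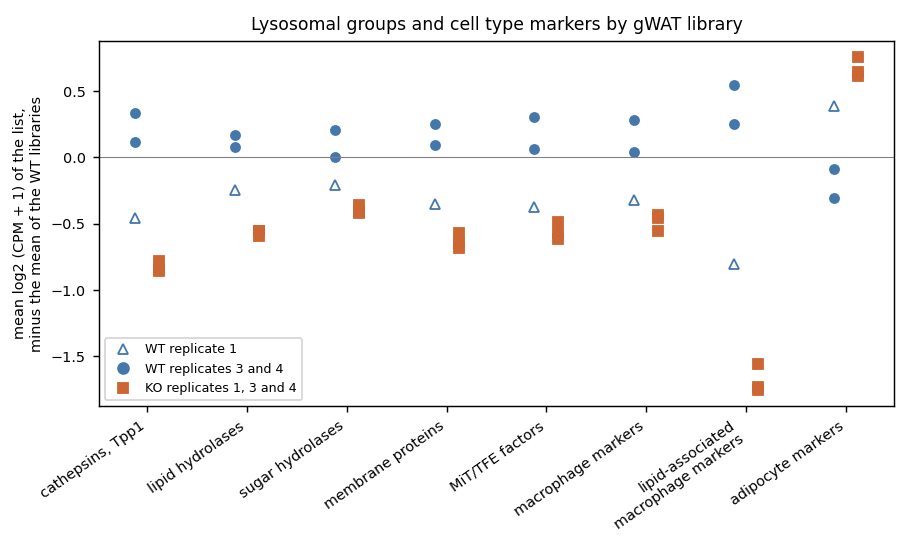
Mean log2 (CPM + 1) of the 5 groups of lysosomal genes and of 3 lists of cell type markers in each gWAT library, minus the mean of the 3 WT libraries. In the lysosomal groups and both macrophage lists the KO squares lie below all WT points, and in the adipocyte list they lie above them. On summed CPM, in contrast, WT replicate 1 lies within the KO range for the macrophage and adipocyte lists.

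In heart, 0 of the 36 genes were called, and 0 had an unadjusted p under 0.05, by edgeR, DESeq2 or limma-voom. Of the 14159 genes tested in heart 0.00706% were called, which is Fhl2 itself, and 3.2% had an unadjusted p under 0.05. The median log2 fold change was 0.01 over the 36 genes and 0.00 over all genes tested, with 17 values below 0 (51% of all genes) and 19 above. Groups overlapped in all 36 genes, while 1.17% of all genes lay lower and 1.24% higher in KO hearts without overlap. The standard errors ran from 0.06 to 0.43, and those of Ctsk, Cd68 and Lipa were 0.16, 0.15 and 0.08. The 36 genes summed to 3649 ± 132 CPM (SD, n = 4) in WT and 3637 ± 129 CPM (SD, n = 4) in KO hearts.

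The lowest unadjusted p in heart was that of Tpp1. Tpp1 was at 45.4, 42.1, 44.2 and 45.4 CPM in WT replicates 1 to 4 and at 49.4, 55.7, 48.2 and 45.2 CPM in KO replicates 1 to 4, a log2 fold change of 0.16 ± 0.08 (edgeR adjusted p = 1). Only KO replicate 4 lay within the WT range. Cd68 was at 12.4, 15.1, 10.6 and 11.4 CPM in WT and at 10.7, 10.3, 12.2 and 7.99 CPM in KO hearts, with -0.26 ± 0.15 (edgeR adjusted p = 1). Acp5 was low in heart, at 0.933 to 5.81 CPM in WT and 1.93 to 2.94 CPM in KO libraries, and its log2 fold change of -0.39 ± 0.43 changed sign to 0.12 without WT replicate 2. Tfeb, Tfe3 and Mitf gave 0.01 ± 0.09, -0.15 ± 0.09 and 0.03 ± 0.09. None of these values separated the genotypes.

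Hearts numbered 1 and 2 differed from those numbered 3 and 4 in atrial muscle. The 5 atrial markers summed to 3156 to 4442 CPM in the former and 90.0 to 888 CPM in the latter, in both genotypes. With these number sets as a covariate, 0 of the 36 genes were called. The 15 macrophage markers summed to 624 to 664 CPM in WT and 499 to 720 CPM in KO hearts, and 0 of 15 were called.

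The difference between the effect in gWAT and the effect in heart was tested as an interaction in 1 fit of all 14 libraries. It was below 0 and called for 9 of the 36 genes (25%), and above 0 and called for 0. Of all 16014 genes in this fit 1.15% were called, 0.787% below 0 and 0.362% above. The difference was below 0 in 31 of the 36 genes, called or not, against 50.5% of all genes. Ctsl gave a difference of -1.21 ± 0.18 (SE, log2; edgeR adjusted p = 0.0167), Lipa one of -1.69 ± 0.29 (edgeR adjusted p = 0.0218) and Ctsk one of -2.22 ± 0.47 (edgeR adjusted p = 0.0384). Tpp1 (-0.60 ± 0.12, edgeR adjusted p = 0.0307) was called here though it was not in either tissue alone. Hexa, Ctsd, Grn, Gusb and Psap made up the rest, between -1.04 and -0.86. Cd68 and Ctss, which fell in gWAT, gave -1.73 ± 0.40 and -1.35 ± 0.32 and missed the threshold (edgeR adjusted p = 0.052 and 0.0533). Galns, which also fell in gWAT, gave -0.66 and was not called here either. With the replicate number as a block, 4 of the 9 were called (Ctsl, Lipa, Tpp1 and Ctsk). Without gWAT WT replicate 1 the count was 22. Without any 1 of the other gWAT libraries it was 0 or 1, and without any 1 heart library 2 or 4. Over all genes, 126 were called below 0 in the reported fit and 822 without gWAT WT replicate 1. Without any 1 of the other gWAT libraries these were 1 to 9, and without any 1 heart library 20 to 44.

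**Figure D4:**
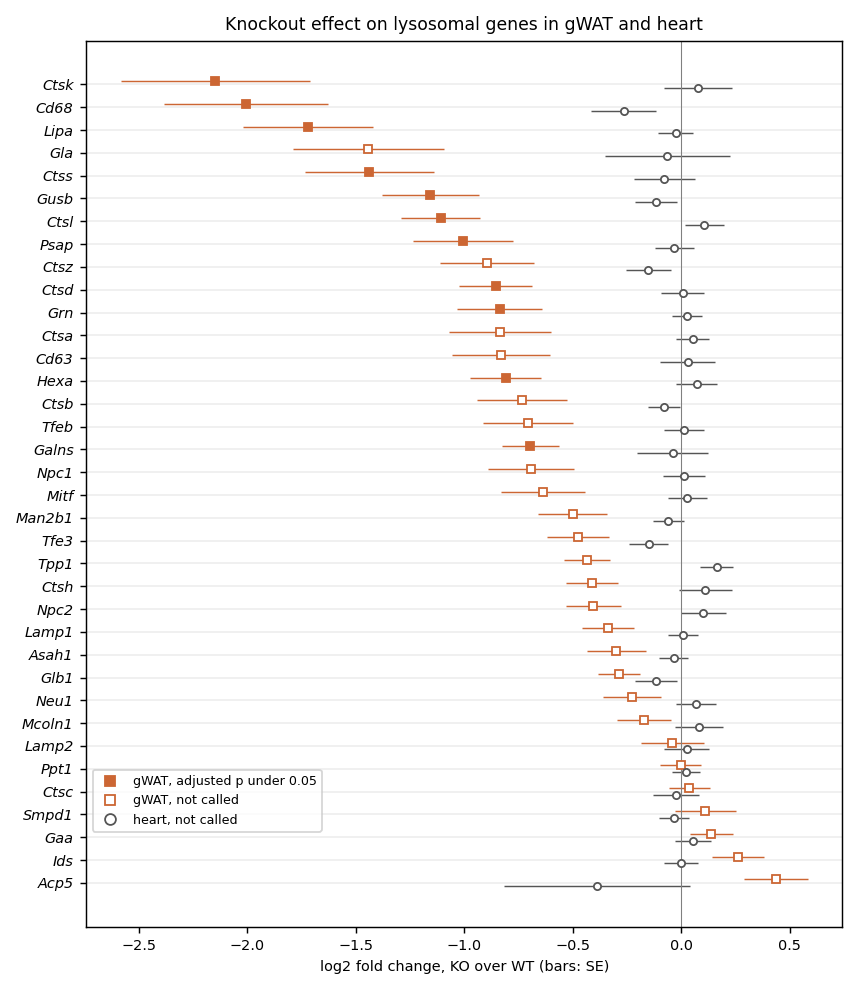
Log2 fold change, KO over WT, of the 36 genes in gWAT (squares, filled where the edgeR adjusted p was under 0.05) and heart (circles), with standard errors as bars. Heart values lie between -0.39 and 0.16, and gWAT values run from -2.15 (Ctsk) to 0.44 (Acp5).

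Most of the 36 genes were more abundant in gWAT than in heart of WT mice. Of the 36 genes, 30 were called higher in gWAT and 2 lower by edgeR, with a median log2 difference of 1.71 against 0.03 over all genes tested. Tissue differences were common, since 70.5% of the 16014 genes were called, 36.6% as higher and 33.9% as lower in gWAT. The largest differences were those of Acp5 (log2 difference 5.73 ± 0.31), Cd68 (4.49 ± 0.30), Ctsk (4.28 ± 0.34), Npc2 (3.98 ± 0.12) and Ctss (3.91 ± 0.24). These included 3 of the 5 genes with the most negative fold change in gWAT of KO mice (Ctsk, Cd68 and Ctss), and also Acp5 and Npc2, which were not called there. Mitf (-0.99 ± 0.14) and Smpd1 (-0.98 ± 0.11) were lower in gWAT. Gaa, Ids, Lamp2 and Tfeb were not called. On library totals without scaling factors the median of all genes moved from 0.03 to 0.61. Of the 36 genes 33 were then called higher, while the calls higher over all 16014 genes went from 5869 to 9070. Tfeb and Gaa changed from -0.27 and -0.07 to 0.32 and 0.50.

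Levels of different genes were compared per exon length, as CPM per kilobase of exon (RPKM), scaled within each tissue. In WT gWAT Psap was highest (1563 RPKM), followed by Ctsb (777), Ctsd (733), Ctss (480), Lamp1 (416) and Cd68 (321). Ctsb and Ctsd were within their spread of each other. The lowest were Tfe3 (7.03 RPKM), Mitf (5.05), Mcoln1 (4.85) and Tfeb (3.62). In WT heart Psap (320 RPKM), Ctsd (154), Lamp1 (144), Ctsb (69.7) and Smpd1 (42.8) led, and Acp5 (1.52) and Gla (0.985) were lowest. Smpd1 stood at rank 23 of 36 in gWAT and rank 5 in heart, Cd68 at ranks 6 and 19, and Acp5 at ranks 12 and 35. In KO gWAT Psap was at 779 RPKM and still led, while Cd68 was at 80.0 and Ctsk at 26.5, compared with 117 in WT.

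**Figure D5:**
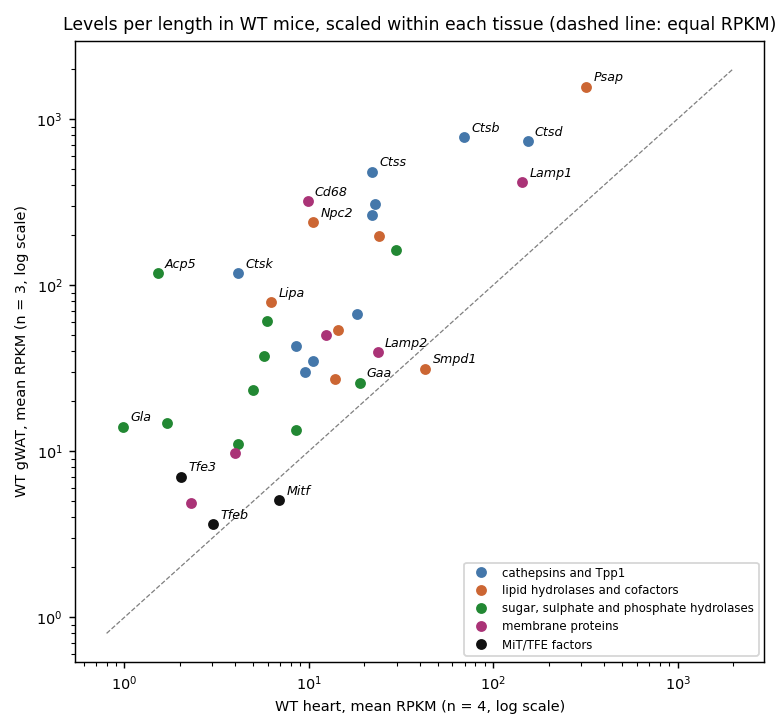
Mean level of each gene in WT heart (n = 4, horizontal) and WT gWAT (n = 3, vertical), in RPKM on log scales, coloured by group. The dashed line marks equal RPKM and is no test between tissues, since each tissue was scaled alone: Tfeb and Gaa lie above it, while their jointly scaled log2 differences were -0.27 and -0.07.

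A further 63 lysosomal genes were examined in the same fits. In gWAT 6 of 63 fell and 0 rose (9.52%, where 5.49% of all genes were called and 3.48% were called lower), and their median log2 fold change was -0.20. Of 24 other hydrolases 2 fell: Lgmn, the asparaginyl protease legumain, went from 492 ± 185 to 198 ± 13.8 CPM (SD, n = 3 each; log2 fold change -1.31 ± 0.26, edgeR adjusted p = 0.0335), and Galc, galactosylceramidase, from 75.3 ± 12.98 to 43.5 ± 3.43 CPM (-0.79 ± 0.14, edgeR adjusted p = 0.0285). Of 18 membrane proteins and transporters 2 fell, the cation channel gene Tpcn2 (-1.65 ± 0.33, edgeR adjusted p = 0.034) and the amino acid transporter gene Slc36a1 (-0.48 ± 0.11, edgeR adjusted p = 0.0463). Of 9 sorting and processing genes 1 fell, Cstb, which encodes the cathepsin inhibitor cystatin B (-1.09 ± 0.13, edgeR adjusted p = 0.0174). Of a list of 12 genes, made up of regulators of the MiT/TFE factors and their relative Tfec, 1 fell. This was Rragd, a Rag GTPase that recruits mTORC1 to lysosomes (-2.33 ± 0.50, edgeR adjusted p = 0.0387). Rragd rested on few reads, 141 in all WT and 27 in all KO gWAT libraries. Tfec, the fourth relative of the MiT/TFE factors, gave -0.58 ± 0.43 and was not called (edgeR adjusted p = 0.457). Leaving out WT replicate 1 turned these 6 calls into 26. Leaving out WT replicate 3 left 1 call, and leaving out any of the other 4 gWAT libraries left 0. Over all genes tested, the calls lower in these fits were 1707, 87 and 0, against 529 as reported. In heart 0 of the 63 were called by edgeR, 0 had an unadjusted p under 0.05, and the median was 0.01.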

How the data were processed

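The authors deposited whole-number counts of reads for each Ensembl gene in each library, with no normalization. Among the tools in the submitters' processing notes are HISAT2 2.1.0 and HTSeq 0.11.0, with Trimmomatic 0.32, and the build is mm10 (GRCm38). Whether HTSeq counted by strand is not given in the sources used here. Groups came from the labels. Per tissue, genes were filtered (filterByExpr), scaled (TMM) and tested for KO against WT with edgeR 4.0.16's quasi-likelihood F test in R 4.3.3, with Benjamini-Hochberg adjustment over all genes tested and a threshold of 0.05. The interaction and the tissue contrast used 1 fit of 14 libraries. The standard error is the log2 fold change over the square root of F. CPM use TMM-scaled library sizes, RPKM divides them by the exon union length in GENCODE M21, and list means use a pseudocount of 1. On simulated counts with 2-fold changes in 100 genes, 84% were recovered in gWAT (15200 genes) and 96% in heart (14159 genes). Genes were drawn independently, with the same dispersion for both genotypes. A shift of 1 library in many genes, as in gWAT WT replicate 1, was not simulated, so these shares do not give the recovery under it. In 18 pairs of libraries within groups, counts differed by more than sampling noise (lowest chi-square over degrees of freedom 3.53).

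In heart, equal numbers correlated in their deviations from the group means (r = 0.266, 0.385, 0.385 and 0.297 across genes), which passed the rule of 0.1 for pairs. Unequal numbers within the sets 1 and 2 or 3 and 4 gave 0.175 to 0.486, the highest for WT 1 and KO 2. The reported heart tests were unpaired, and the replicate number entered only as a block among the alternatives. Alternatives were RLE scaling, library totals, 2 other filters, DESeq2 1.42.0, limma-voom (limma 3.58.1), a replicate block, a threshold of 0.1, 1 joint fit, heart number sets and leaving out each library. All 36 genes are accounted for, in full where called or a MiT/TFE factor. Of other lists, up to 3 called genes per list, Tfec and 5 markers were to be named. The genes, lists and the promoter motifs were chosen with earlier results of these data known.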

Additional observations from a re-analysis of the deposited data

Results flagged for a closer look

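Heart KO replicate 1 lay far from the other KO hearts in 2 of the 72 gene groups checked in heart, where chance alone flags about 1 in 20. Ctsd was at 421.7 CPM there against 338.7 to 346.5 CPM in the other 3, and Smpd1 at 152.3 CPM against 134.0 to 136.9 CPM. The gWAT groups of 3 were too small for this check.

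The knockout effect differed between gWAT and heart in 9 genes by the edgeR interaction test. The log2 difference, gWAT effect minus heart effect, was -2.22 for Ctsk, -1.69 for Lipa, -1.21 for Ctsl, -1.04 for Gusb, -0.97 for Psap, -0.88 for Hexa, -0.86 for Ctsd, -0.86 for Grn and -0.60 for Tpp1. The edgeR adjusted p ran from 0.0167 (Ctsl) to 0.0447 (Psap). With the replicate number as a block 4 of them were called, Ctsl, Lipa, Tpp1 and Ctsk.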

How the results depend on the processing

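The direction of the gWAT result held in its median under all 15 alternatives, but the number of calls did not. The 11 members called lower in gWAT became 19 with no filter, 25 with DESeq2, 7 with limma-voom, 22 at a threshold of 0.1 and 24 in 1 joint fit. Over all genes tested, the 529 called lower became 1015, 1098, 264, 1070 and 1142. With the same changes the 6 other lysosomal genes called lower became 16, 19, 3, 18 and 21. At a threshold of 0.1, 1 of the other genes was called higher. The 9 interaction calls became 14 with no filter, 16 with DESeq2 and 5 with limma-voom. Over all genes, the 126 interaction calls below 0 became 370, 446 and 36. With the replicate number as a block, 0 members and 0 other lysosomal genes were called in gWAT. With it 4 interaction calls were left, and no heart call was gained. In gWAT 27 members were lower with the block at an unadjusted p under 0.05 by edgeR. In the reported fit, 26 members and 1930 of all 15200 genes were lower at that level. This block left 0 calls among all 15200 genes in gWAT, and 118 calls below 0 among all 16014 genes in the interaction. In gWAT the equal numbers gave r of -0.112, -0.226 and 0.041, which did not pass the rule for pairs. Leaving out each library gave 0 to 25 members lower and 0 to 1 higher, a member median of -0.80 to -0.48, 0 to 26 other genes lower and 0 to 3 higher in gWAT, and 0 to 22 interaction calls. Over all genes, 0 to 1707 were then called lower in gWAT and 1 to 822 below 0 in the interaction. The heart median of the members was 0.0641 on library totals, where the median of all genes was 0.0465. When leaving out each library, the member median in heart was -0.01 to 0.02.

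Under at least 1 alternative the sign turned in 3 members in gWAT, 22 in heart, 4 in the interaction and 2 in the tissue contrast, none of which was called in that comparison as reported. They include Ctsc in gWAT on library totals (-0.0082), Ppt1 in gWAT with no filter (0.0019) or without 1 library (-0.0326 to 0.0568), Lamp2 in gWAT without 1 library (-0.111 to 0.0857), and in heart without 1 library Acp5 (-0.6833 to 0.1212), Mitf (-0.0368 to 0.106) and Tfeb (-0.0298 to 0.0682). In the tissue contrast Tfeb (0.32) and Gaa (0.50) turned on library totals. The cause was not tested. Fits without a gWAT library leave 2 samples in a group, so fewer samples enter them.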
